A study of Mus musculus with 8 samples.

Results

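The flavin-containing monooxygenases are a family of membrane-bound enzymes, and 4 of its mouse genes, Fmo1, Fmo2, Fmo4 and Fmo5, are described here in scraped back-skin epidermis. They were taken by gene symbol from the 54232 Ensembl identifiers counted in every library. The set was chosen by earlier values of the same counts: Fmo2 was selected on its high RNA level after a glucocorticoid was given before TPA, against TPA alone. Its values in that contrast, and those of its relatives, are therefore described below without a test. The 4 genes were read in all 8 libraries. Of them, 3 passed the filter on low counts that left 19251 genes for testing, and Fmo4 did not.

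Female mice of 2 genotypes were used, wild type and REDD1 Knockout, both on an F1 C57Bl x 129 background. REDD1, the protein of Ddit4, restrains mTORC1 under stress and is itself induced by glucocorticoids. Back skin was shaved and received 200 ul of acetone alone (vehicle), 4 ug of the tumour promoter TPA, a phorbol ester, or 2 ug of fluocinolone acetonide (FA), a synthetic glucocorticoid, 1 h before the same dose of TPA. Epidermis was scraped off 24 h after TPA, and total RNA was sequenced. No age of the mice, number of mice behind a library or kind of knockout allele is stated in the labels. Each genotype had 2 vehicle libraries, 1 TPA library and 1 FA+TPA library. The vehicle replicates are numbered in the labels without a statement that they came from separate animals, so the spread behind a p-value is that of these samples and may be only technical. No treatment group had a second library of the same genotype, so treatments were compared over both genotypes together.

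Library totals ranged from 16874233 to 22560098 counts. A count of 3, used as the lowest level that could be read, stood for 0.134 to 0.191 CPM (counts scaled to library size), and this covers counting error only. All CPM here are scaled by TMM, a normalisation that sets aside the most different genes. The noncoding transcript Gm26917 took 8.34 to 13.83% of counts in vehicle libraries and 16.77 to 24.21% in treated ones. Ddit4 was at 116.7 and 127.9 CPM in wild-type vehicle skin and at 18.6 and 18.8 CPM in knockout vehicle skin, and every knockout library lay below every wild-type library. Summed CPM of 6 keratinocyte markers lay between 16409.8 and 32112.3 in every library, so the labelled tissue carried its defining RNA.

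Flavin monooxygenases use NADPH and oxygen to put an oxygen atom on nitrogen and sulfur atoms of drugs, dietary amines and other small molecules. The enzymes sit in the endoplasmic reticulum and hold the oxygen on a bound flavin before a substrate arrives. Fmo1 is the main form in mouse kidney and also oxidises hypotaurine to taurine. Fmo2 is best known as the form of the lung. Fmo5 is abundant in liver and gut and is a poor oxidiser of typical family substrates, whereas it can insert oxygen next to a ketone. Fmo4 is the least studied of the 4.

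In the GRCm38 (mm10) assembly, 3 of the genes lie side by side on the minus strand of chromosome 1, Fmo4 at 162793188 to 162813972, Fmo1 at 162829561 to 162866610 and Fmo2 (ENSMUSG00000040170) at 162874317 to 162898726. Fmo5 (ENSMUSG00000028088) lies apart, on the plus strand of chromosome 3 at 97628804 to 97655282. Reads of related genes can be hard to assign, so the longest annotated coding sequences of the 4 genes in GENCODE M21 were compared. Aligned bases were identical between Fmo2 and its relatives at 62.9% (Fmo1), 65.1% (Fmo4) and 64.1% (Fmo5). The longest run of bases that any pair of coding sequences shared was 24, and no run of 50 bases was shared between any pair over all annotated transcripts. An exact read of that length could therefore belong to 1 of these genes alone.

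In vehicle skin Fmo2 was the most abundant of the 8 family genes described here and Fmo5 came next. Fmo2 was at 63.8 and 62.8 CPM in wild-type vehicle skin and at 48.5 and 35.7 CPM in knockout vehicle skin. Fmo5 was at 18.5 and 17.2 CPM in wild type and at 17.6 and 15.3 CPM in knockout. Divided by the length of merged exons, which allows genes to be compared, Fmo2 exceeded Fmo5 by 3.49 and 3.69 times in wild-type and by 2.79 and 2.36 times in knockout vehicle skin. The order was the same in all 4 vehicle libraries, and the ranges of the genes did not overlap. Fmo1, with 8 to 19 counts per library, was near the lower limit of what could be read, at 0.452 to 1.15 CPM. Fmo4 had 1 count, in wild-type TPA skin, and 0 in the other 7 libraries. The upper 95% exact binomial limits of those zero counts were 0.165 to 0.234 CPM.

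Other family genes were near 0 as well. Fmo6 had 3 counts, Fmo12 had 1, and Fmo9 and Fmo13 had 0 over all 8 libraries. None of these 4 was tested, so 3 of the 8 family genes described here were measured in this epidermis.

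**Figure D1:**
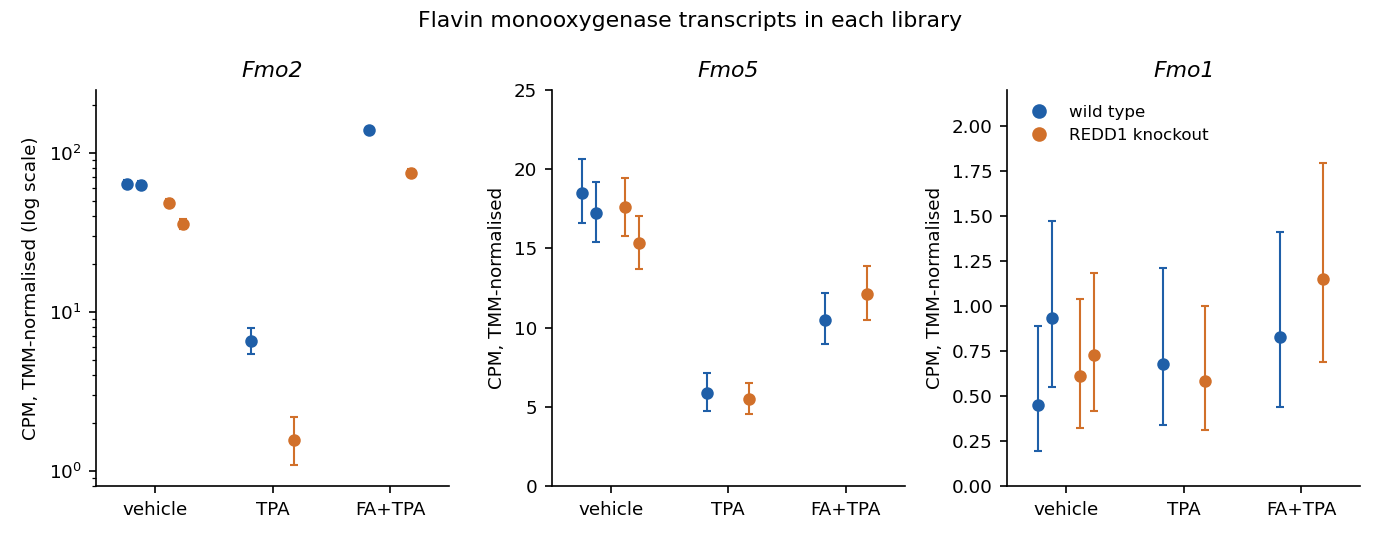
TMM-normalised CPM of Fmo2 (log axis), Fmo5 and Fmo1 in each library, by treatment. Points are single libraries, and bars are 95% exact binomial intervals of the count out of the library total. Blue is wild type and orange is REDD1 knockout. Fmo2 spans 1.57 to 140.0 CPM, Fmo5 spans 5.47 to 18.5 CPM, and the intervals of Fmo1 overlap between all 8 libraries.

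Fmo2 and Fmo5 RNA fell with TPA, and no change of Fmo1 was detectable at its depth. The TPA level of Fmo2 was 6.59 CPM with REDD1 and 1.57 CPM without it. Both TPA libraries lay far below all 4 vehicle libraries, 9.61-fold below the vehicle mean in wild type and 26.8-fold in knockout. These TPA libraries are also the reference of the contrast that picked out Fmo2. Its fall here, and the p-value, are therefore not independent of that choice. Over both genotypes Fmo2 fell by 3.83 ± 0.27 on the log2 scale (SE, edgeR adjusted p = 1.84e-06). The size depended on which TPA library was used, with a log2 fold change of -3.28 without the knockout one and -4.69 without the wild-type one.

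The TPA level of Fmo5 was 5.85 CPM with REDD1 and 5.47 CPM without it. The TPA libraries again lay below every vehicle library, by 3.05-fold in wild type and 3.01-fold in knockout, so the genotypes gave nearly the same ratio. Fmo5 fell by 1.60 ± 0.14 on the log2 scale (edgeR adjusted p = 9.26e-06). Fmo1 was at 0.677 and 0.583 CPM in TPA skin, within its vehicle range of 0.452 to 0.930 CPM. Its log2 fold change was -0.12 ± 0.40 (edgeR adjusted p = 0.822).

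Of the 3 members tested, 2 were lower with TPA and none was higher. TPA changed 46.0% of all genes tested, 23.2% upward and 22.8% downward, so a fall is common in this comparison. Scaling by library size alone moved the median of all genes from -0.03 to -0.25 (log2) and the calls from 4472 higher and 4380 lower to 2846 and 6432, and the 2 members were lower under that scaling too. The TPA libraries also serve as the reference of the contrast by which Fmo2 was picked out, so its low level there is not independent of that choice. In bulk RNA, fewer cells of a type and less RNA per cell cannot be told apart. Markers of keratinocytes and of other cells moved with TPA. Of 6 keratinocyte markers, 3 fell and 1 rose. Krt10, a keratin of differentiating cells, went from 7899.7 to 9750.4 CPM in vehicle to 3184.0 and 1900.3 CPM in wild-type and knockout TPA skin. Krt15, a keratin of basal and hair follicle cells, went from 1973.7 to 2269.8 CPM to 172.2 and 379.1 CPM. The basal keratin gene Krt14 rose by 1.58 ± 0.09 on the log2 scale (edgeR adjusted p = 5.93e-07). Of 6 neutrophil and macrophage markers, 4 were called higher with TPA. Their summed level was 15.4 to 24.4 CPM in vehicle, 232.2 to 426.4 CPM in TPA and 67.4 to 111.3 CPM in FA+TPA skin. Much of the TPA sum was S100a8 alone, at 366.5 and 133.8 CPM in wild-type and knockout TPA skin. The macrophage gene Adgre1 was at 8.75 to 13.9 CPM in vehicle and 5.79 and 13.6 CPM in TPA skin. Endothelial markers, 4 of 5 tested called higher with TPA, summed to 5.19 to 7.85 CPM in vehicle and 31.2 to 33.9 CPM in TPA skin. Most of the TPA sum was Flt1, at 26.0 and 17.9 CPM in wild-type and knockout TPA skin. Pecam1 was at 4.62 and 7.84 CPM there, and Cdh5, Kdr, Tek and Emcn were each at 2.60 CPM or less. Of 6 fibroblast markers, 2 were called higher and 3 lower with TPA, and their sum was 620.1 to 1166.1 CPM in vehicle and 385.7 to 512.4 CPM in TPA skin. Without the knockout TPA library, 2 endothelial markers were called higher and 0 fibroblast markers lower. Their part in the falls of Fmo2 and Fmo5 was not tested.

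When FA preceded TPA, Fmo2 RNA was far above its level with TPA alone and above its vehicle level, whereas its relatives differed much less. The FA+TPA level of Fmo2 was 140.0 CPM with REDD1 and 75.0 CPM without it. These were its highest values within each genotype. They exceeded TPA alone by 21.3-fold in wild type and 47.8-fold in knockout, and exceeded the vehicle mean by 2.21-fold and 1.78-fold. The fitted log2 difference from TPA alone was 4.82 ± 0.29, and that from vehicle was 0.99 ± 0.19. Leaving out the wild-type TPA library gave 5.68 for the first of these and leaving out the knockout one gave 4.27.

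The FA+TPA level of Fmo5 was 10.5 CPM with REDD1 and 12.1 CPM without it. This was between TPA alone and vehicle in both genotypes, with no overlap of the 3 ranges. The FA+TPA level was 1.79 times the TPA level in wild type and 2.22 times in knockout, and 0.587 and 0.737 times the vehicle level. The fitted log2 differences were 1.00 ± 0.16 from TPA alone and -0.60 ± 0.13 from vehicle. Fmo5 thus stayed below vehicle where Fmo2 was above it.

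The FA+TPA level of Fmo1 was 0.826 CPM with REDD1 and 1.15 CPM without it. The log2 differences were 0.65 ± 0.45 from TPA alone and 0.53 ± 0.38 from vehicle, each less than 2 errors from 0. The log2 difference from TPA alone was 3.82 larger for Fmo2 than for Fmo5 and 4.17 larger than for Fmo1. Among all genes tested, 5.71% were called higher and 4.31% lower with FA+TPA than with TPA. Against vehicle, 31.6% were called, 17.4% higher and 14.2% lower with FA+TPA. Because the contrast with TPA chose Fmo2, its place among those genes is not given. The comparisons with TPA and with vehicle share libraries, so each is given by its own values. Skeletal muscle markers summed to 23.2 to 32.9 CPM in TPA and 113.8 to 134.2 CPM in FA+TPA skin. Between these, edgeR called 0 of the 6, with 4 at an unadjusted p under 0.05, and DESeq2 called 0. Library size alone called 3 higher, and 4 were called higher without the first knockout vehicle library and 2 without the knockout FA+TPA or the second wild-type vehicle library. Of 6 neutrophil and macrophage markers, 1 was called higher and 3 lower with FA+TPA. Their part in the Fmo2 level was not tested.

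**Figure D2:**
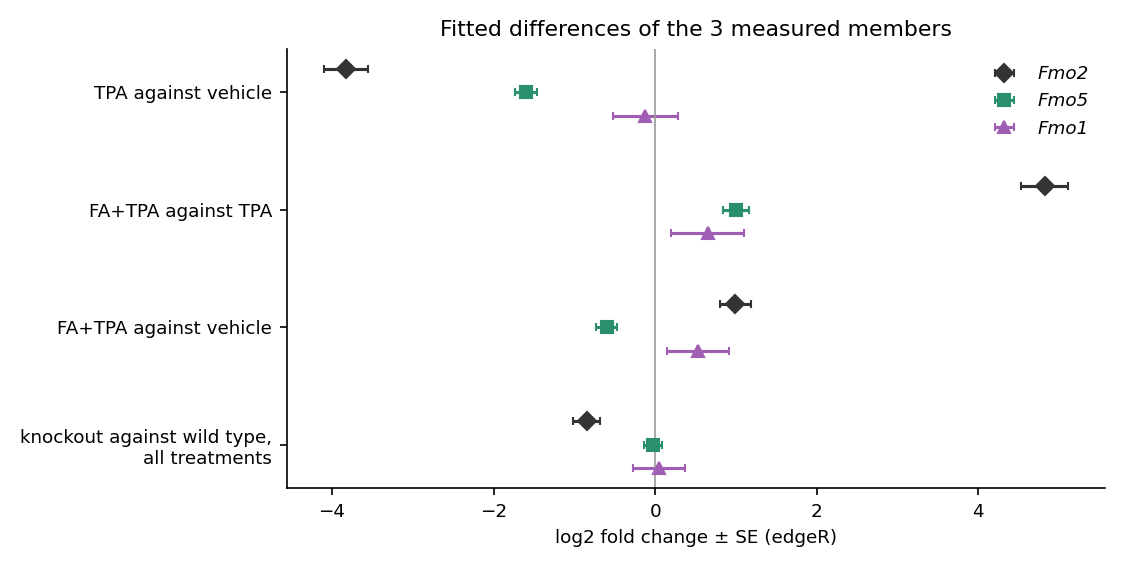
Fitted log2 fold change of Fmo2, Fmo5 and Fmo1 in 4 comparisons over all 8 libraries, with bars of 1 SE. Fmo2 lies at -3.83 for TPA against vehicle and at 4.82 for FA+TPA against TPA, Fmo5 lies at -1.60 and 1.00, and Fmo1 lies within 2 SE of 0 in all 4.

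Of the 3 measured members, Fmo2 had the largest share of RNA in vehicle and FA+TPA skin but not in knockout TPA skin. Their per-kb levels summed to 9.18 to 14.7 CPM per kb in vehicle skin, to 2.31 and 1.34 in wild-type and knockout TPA skin, and to 26.9 and 15.7 in FA+TPA skin. Fmo2 made up 69.3 to 77.9% of that sum in vehicle, 50.8% and 20.9% in wild-type and knockout TPA, and 92.7% and 85.2% in FA+TPA skin. In knockout TPA skin Fmo5 was the highest member, at 0.964 against 0.280 CPM per kb for Fmo2. In wild-type TPA skin the 2 genes were close, at 1.17 CPM per kb for Fmo2 and 1.03 for Fmo5, and their counting intervals in CPM overlapped (5.40 to 7.96 and 4.73 to 7.15). In the remaining 6 libraries Fmo2 was the higher of the pair. Dividing by the longest transcript in place of merged exons kept this order in every library.

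**Figure D3:**
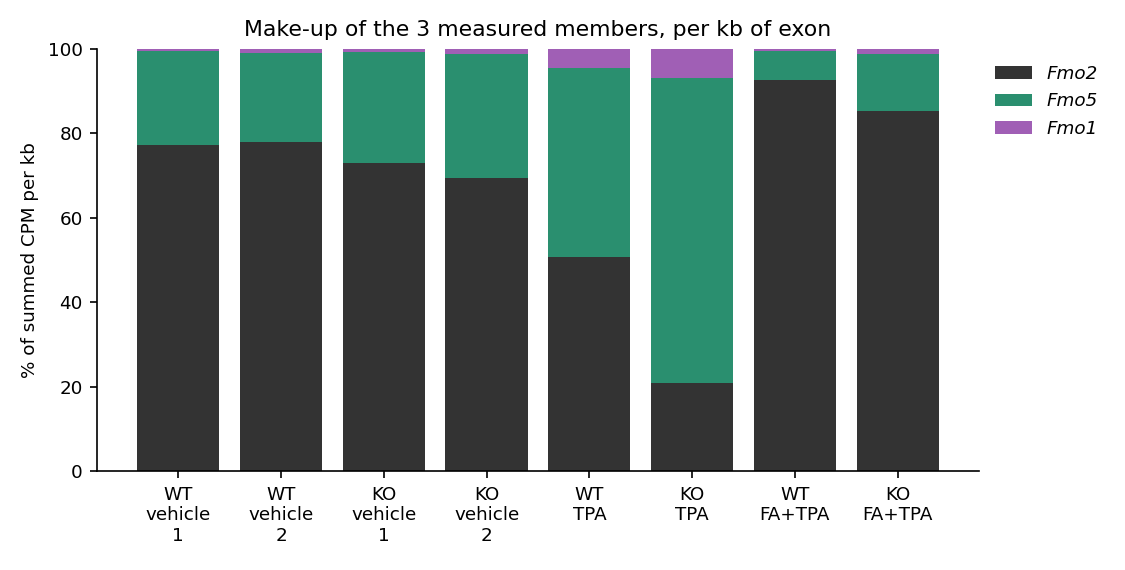
Share of the summed CPM per kb of Fmo2, Fmo5 and Fmo1 in each library, stacked to 100%. The Fmo2 share lies between 69.3 and 77.9% in vehicle skin, is 20.9% in knockout TPA skin and reaches 92.7% in wild-type FA+TPA skin.

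Fmo2 RNA was lower without REDD1, and Fmo5 and Fmo1 were not called. In vehicle skin the mean level of Fmo2 was 63.3 ± 0.688 CPM with REDD1 and 42.1 ± 9.00 CPM without it (SD, n = 2). The ratio of wild type to knockout was 4.20 in TPA skin and 1.87 in FA+TPA skin, each from 1 library per genotype. Knockout lay below wild type under each of the 3 treatments. Over all treatments Fmo2 fell by 0.85 ± 0.17 on the log2 scale in the knockout (edgeR adjusted p = 0.0237). Fmo5 had a log2 fold change of -0.03 ± 0.11 (edgeR adjusted p = 0.931) and Fmo1 of 0.05 ± 0.32 (edgeR adjusted p = 0.971). Thus 1 of 3 members was called, against 3.58% of all genes, 1.60% lower. The Fmo2 call was lost when the knockout or the wild-type FA+TPA library or the second knockout vehicle library was left out (edgeR adjusted p = 0.114, 0.116 and 0.0717).

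In vehicle skin alone the log2 fold change of Fmo2 in the knockout was -0.59 ± 0.15 (edgeR adjusted p = 0.0926, unadjusted p = 0.00300), which did not pass the threshold. No member was called there, against 2.17% of all genes, 1.44% higher and 0.727% lower. The Fmo2 log2 fold change was -0.83 without the first knockout vehicle library and -0.39 without the second. It was -0.58 without the first wild-type vehicle library and -0.60 without the second. In these fits the spread came from 1 vehicle pair, so no call is read from them. The knockout libraries differed from wild type in markers of other skin cells too. All 6 sebaceous gland markers and 5 of 6 skeletal muscle markers were called higher in knockout vehicle skin. Over all treatments 4 of 6 sebaceous markers were called higher, and their summed level was 247.3 to 515.0 CPM in wild-type and 561.0 to 1021.2 CPM in knockout libraries. The sebaceous count was 0 when either FA+TPA library was left out and between 1 and 6 without any other single library. Over all treatments the cornified envelope gene Lor was lower in the knockout (-0.51 ± 0.10, edgeR adjusted p = 0.0228), and no keratinocyte marker was called in at least 1 of the fits without a library. Their part in the Fmo2 difference was not tested.

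Whether TPA or FA acted differently on the members by genotype was tested with 2 residual degrees of freedom, and the treated libraries were assumed to vary like the vehicle pairs. For Fmo2, the log2 fall with TPA was larger in the knockout by 1.48 ± 0.36 (edgeR adjusted p = 0.446, unadjusted p = 0.00220), and the log2 difference of FA+TPA from TPA was larger by 1.16 ± 0.39 (edgeR adjusted p = 1.00, unadjusted p = 0.0141). Neither passed, so the larger knockout ratios are not shown to differ from those in wild type. Without 1 vehicle library, the Fmo2 interaction was -1.68 to -1.24 for TPA and 1.16 to 1.18 for FA on the log2 scale. In those fits the spread came from 1 vehicle pair, so no call is read from them. For Fmo5 the differences between genotypes were 0.02 ± 0.31 for TPA and 0.31 ± 0.35 for FA on the log2 scale. Across all genes, edgeR called 0 for FA, with 613 at an unadjusted p under 0.05 and 7 by DESeq2, and 1 for TPA, which was 0.00519% of genes.

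The stretch before the Fmo2 start was read for motifs because the members responded so unequally when a glucocorticoid was given. RefSeq promoter windows of GRCm38.p6, from 250 bases before to 50 after a start, were found for 3 members as 4 windows, 2 of them for Fmo2. Both strands were searched for AGAACA, the hexamer that is one arm of a glucocorticoid receptor site, its palindrome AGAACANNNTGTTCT, and the AP-1 site TGANTCA. The only match was 1 hexamer in the downstream Fmo2 window, 125 bases before its start. It lies at chr1:162898613-162898618 on the minus strand. The 30 bases printed below have the hexamer in capitals. This stretch overlaps an exon of transcript Fmo2-202, outside its coding sequence, and lies in an intron of Fmo2-201.
Fmo2 hexamer, chr1:162898601-162898630: tcgggacgccagAGAACAcaaccagctttg
Of 32851 RefSeq windows, 19.0% held the hexamer, 0.00913% the palindrome and 7.81% the AP-1 site, so a hexamer alone is common. The 250 bases before the upstream Fmo2 start lie outside all annotated Fmo2 transcripts. They are printed as the sequence nearest to that start and held none of the 3 motifs.
Fmo2 upstream, chr1:162898759-162899008, minus strand: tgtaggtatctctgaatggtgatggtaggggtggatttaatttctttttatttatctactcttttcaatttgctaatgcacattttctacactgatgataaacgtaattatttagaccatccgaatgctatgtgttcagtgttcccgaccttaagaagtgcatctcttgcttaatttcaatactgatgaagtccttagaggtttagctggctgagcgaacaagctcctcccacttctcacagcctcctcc
The windows of Fmo4 and Fmo5 held none of the 3 motifs. A match or its absence in these windows is a description of letters, and receptor binding was not measured.

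Most genes beside the members were not called where Fmo2 and Fmo5 were. Within 250 kb of a member on chromosome 1, the SNARE gene Vamp4, the RNA-binding Prrc2c and the methyltransferase gene Mettl13 were tested, and none was called with TPA or with FA+TPA against TPA. Their log2 fold changes with TPA were 0.18 ± 0.11, 0.07 ± 0.09 and 0.30 ± 0.15 (edgeR adjusted p = 0.223, 0.560 and 0.125). Mettl13 was called higher with TPA without the first wild-type vehicle library (0.44, edgeR adjusted p = 0.00623). Fmo1 lies directly beside Fmo2 and shares its strand, so 2 neighbouring family genes had TPA log2 fold changes of -0.12 and -3.83. Near Fmo5, Chd1l, Prkab2 and Sec22b were not called, with TPA log2 fold changes of -0.22 to 0.11. By library size alone, Chd1l and Prkab2 were called lower with TPA (-0.45 and -0.33, edgeR adjusted p = 0.00611 and 0.0364). Pde4dip, a centrosome and Golgi scaffold gene, was called and fell by 0.99 ± 0.12 with TPA (edgeR adjusted p = 5.98e-05) and was higher by 0.63 ± 0.13 with FA+TPA than with TPA (edgeR adjusted p = 0.0119). The second Pde4dip call was lost when either treated wild-type library was left out (edgeR adjusted p = 0.167 without FA+TPA and 0.13 without TPA).

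**Figure D4:**
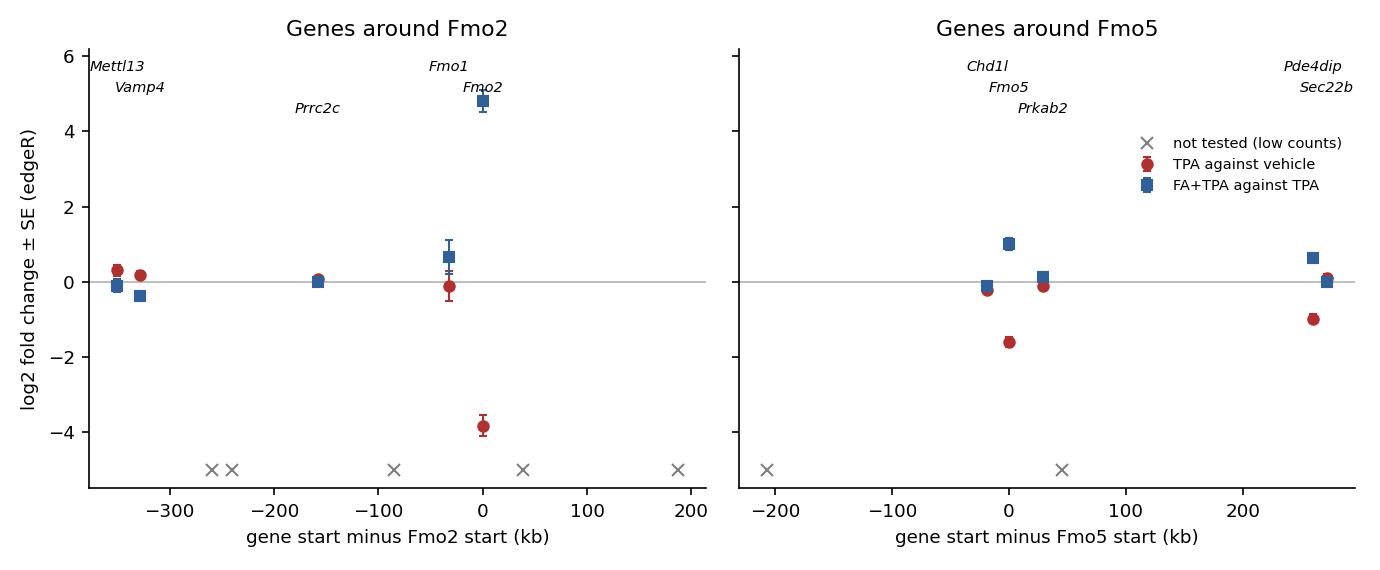
Log2 fold change (bars of 1 SE) of annotated protein-coding genes near Fmo2 and Fmo5, by distance of the gene start in kb. Red circles are TPA against vehicle, blue squares are FA+TPA against TPA, and grey crosses at the bottom mark genes not tested. Fmo2 stands at -3.83 and 4.82, the latter in the contrast that chose it, and the other tested genes of its neighbourhood lie between -0.38 and 0.65.

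The genes whose levels followed Fmo2 most closely over the 8 libraries moved far less than it did. By Pearson correlation of log2 CPM among 10741 genes, these were Tuft1 (0.997), Epha1 (0.995), Krt78 (0.994), Gprin2 (0.991) and Rnf227 (0.986). Genes with names that start with Gm and digits or end in Rik were not ranked. The points share libraries and treatments, so the coefficients describe a pattern and carry no test. Krt78, a keratin gene, was at 272.1 to 307.6 CPM in vehicle, 122.5 and 79.5 CPM in wild-type and knockout TPA, and 438.4 and 370.6 CPM in FA+TPA skin. Its order of treatments was that of Fmo2. Tuft1, which encodes tuftelin, was at 209.9 to 236.7 CPM in vehicle, 155.9 and 115.8 CPM in TPA, and 277.5 and 229.7 CPM in FA+TPA skin. The log2 fold change with TPA was -1.55 for Krt78 and -0.74 for Tuft1, against -3.83 for Fmo2. These genes were chosen by the same libraries, so no test is given.

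Fmo5 was most like Zfp764 (0.997), Ppp1r13b (0.996) and Wdr41 (0.995). Ppp1r13b, which encodes the p53-binding protein ASPP1, was at 79.1 to 88.6 CPM in vehicle, 32.1 and 30.6 CPM in TPA and 54.4 and 58.3 CPM in FA+TPA skin. As for Fmo5, FA+TPA lay between TPA and vehicle. Fmo1 was most like Chmp2b (0.954), Scarna13 (0.924) and Psmd8 (0.916). Between members, the coefficient was 0.789 for Fmo2 and Fmo5, 0.373 for Fmo2 and Fmo1 and 0.029 for Fmo5 and Fmo1. Fmo1 had 8 to 19 counts per library, with counting intervals that overlapped between all libraries. Every coefficient with Fmo1 may therefore reflect counting error.

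Genes that work beside the flavin monooxygenases were read as lists. Counts below are out of the genes tested, and the medians over all genes were -0.03 for TPA and 0.01 for FA+TPA against TPA on the log2 scale. Of all genes tested, 23.2% rose and 22.8% fell with TPA, and 5.71% were higher and 4.31% lower with FA+TPA than with TPA. Calls with TPA are thus common, and nothing particular to a list is read from its count. Flavin monooxygenases draw on NADPH, and of 13 genes of NADPH supply and microsomal electron transfer, 7 rose and 2 fell with TPA (median log2 fold change 0.35). G6pdx and H6pd, which start the pentose phosphate pathway in the cytosol and in the endoplasmic reticulum, rose by 0.75 ± 0.12 and 1.03 ± 0.20 (edgeR adjusted p = 0.000479 and 0.00184). The electron donor Cyb5r3 fell by 0.73 ± 0.09 (edgeR adjusted p = 0.000113). The direction of the list depended on scaling, with 3 higher and 5 lower by library size alone, and 3 rose and 2 fell without the wild-type TPA library. None of the 13 was called by edgeR between FA+TPA and TPA (median -0.13), with 0 at an unadjusted p under 0.05 and 0 called by DESeq2 or limma-voom.

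The cytochrome P450 family encodes other microsomal oxidases. Of 12 of its genes, 6 fell and none rose with TPA (median -0.71). With FA+TPA, 5 were higher and none lower than with TPA (median 0.83). Without any 1 of the treated libraries, 2 or 3 were still called higher with FA+TPA. Cyp4b1 was at 24.5 to 30.2 CPM in vehicle, 5.79 and 9.59 CPM in wild-type and knockout TPA, and 15.8 and 16.6 CPM in FA+TPA skin. Like Fmo5, it stood between TPA and vehicle after FA. It fell by 1.84 ± 0.18 with TPA (edgeR adjusted p = 1.44e-05) and was higher by 1.07 ± 0.20 with FA+TPA than with TPA (edgeR adjusted p = 0.00645). Cyp2b19, a keratinocyte epoxygenase, was at 123.3 to 139.5 CPM in vehicle, 98.5 and 81.0 CPM in TPA, and 209.5 and 151.6 CPM in FA+TPA skin. Like Fmo2, it was above vehicle after FA, and its log2 difference from TPA was 1.00 ± 0.14 (edgeR adjusted p = 0.00148). The Cyp4b1 call for FA+TPA against TPA was lost when either treated wild-type library was left out (edgeR adjusted p = 0.0672 without FA+TPA and 0.0511 without TPA), and the Cyp2b19 call for TPA was lost without the knockout TPA library (edgeR adjusted p = 0.0845).

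Of 19 genes of conjugation and epoxide hydrolysis, 5 rose and 8 fell with TPA (median -0.13), and 4 were higher and 1 lower with FA+TPA than with TPA (median 0.19). With TPA, 3 rises and 9 falls were called without the wild-type TPA library, and 6 and 5 without the knockout one. Gsta4, which detoxifies lipid aldehydes, rose by 5.81 ± 0.22 with TPA (edgeR adjusted p = 3.67e-08). The sulfotransferase gene Sult1a1 fell by 1.69 ± 0.19 with TPA and was higher by 1.92 ± 0.21 with FA+TPA (edgeR adjusted p = 4.47e-05 and 0.000382). The epoxide hydrolase gene Ephx1 fell by 1.85 ± 0.14 and was higher by 1.08 ± 0.15 with FA+TPA (edgeR adjusted p = 2.78e-06 and 0.0016).

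Of 15 amine, alcohol and aldehyde oxidation genes, 6 rose and 8 fell with TPA (median -0.44), and 4 were higher and 3 lower with FA+TPA than with TPA (median 0.12). The retinol-oxidising Adh7 was at 41.7 to 57.8 CPM in vehicle, 8.74 and 10.8 CPM in wild-type and knockout TPA, and 47.5 and 39.9 CPM in FA+TPA skin. It fell by 2.35 ± 0.15 and was higher by 2.14 ± 0.16 with FA+TPA (edgeR adjusted p = 9.76e-07 and 5.42e-05). Aldh1a3, which makes retinoic acid, moved the other way, from 0.677 to 1.19 CPM in vehicle to 112.8 and 89.1 CPM in TPA and 5.97 and 11.5 CPM in FA+TPA skin. It rose by 6.66 ± 0.24 with TPA (edgeR adjusted p = 2.92e-08).

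Of 12 genes of cysteine, hypotaurine and methionine sulfoxide metabolism, which handles sulfur compounds of the kind Fmo1 oxidises, 5 rose and 4 fell with TPA (median 0.09), and 4 were higher and 1 lower with FA+TPA (median 0.29). By library size alone 3 rose and 4 fell with TPA, and without any 1 of the treated libraries 2 were higher with FA+TPA. The taurine transporter gene Slc6a6 was at 341.1 to 569.2 CPM in vehicle, 192.2 and 217.2 CPM in TPA, and 768.1 and 596.9 CPM in FA+TPA skin. Both FA+TPA libraries lay above every vehicle library. It fell by 1.02 ± 0.16 with TPA and was higher by 1.71 ± 0.18 with FA+TPA (edgeR adjusted p = 0.00043 and 0.000314). Cbs, which makes cystathionine, fell by 2.48 ± 0.15 with TPA (edgeR adjusted p = 8.62e-07).

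Of 12 glucocorticoid targets, 7 were higher and 1 lower with FA+TPA than with TPA (median 0.88), and 2 rose and 6 fell with TPA (median -0.42). The 7 became 4 without the knockout TPA or the wild-type FA+TPA library. Fkbp5, which encodes a chaperone of the glucocorticoid receptor, was at 80.4 to 146.4 CPM in vehicle, 60.9 and 66.8 CPM in TPA, and 240.8 and 232.7 CPM in FA+TPA skin. Its FA+TPA levels were nearly the same in the 2 genotypes, while those of Fmo2 were 140.0 and 75.0 CPM, each from 1 library. Zbtb16 (173.1 and 140.8 CPM) and Klf9 (50.7 and 44.0 CPM) were lower in the knockout there, and Lcn2 (18.9 and 34.2 CPM) was higher. The knockout level of Fmo2 was 0.665 of wild type in vehicle and 0.535 in FA+TPA skin, and its interaction with FA was not called. Fkbp5 was higher by 1.90 ± 0.20 with FA+TPA (edgeR adjusted p = 0.000314) and Zbtb16, a transcription factor gene, by 2.40 ± 0.26 (edgeR adjusted p = 0.000343). None of the 12 was called by edgeR between knockout and wild type over all treatments, with 2 at an unadjusted p under 0.05 and 1 called by DESeq2. Keratinocyte markers moved with FA too. Of the 6, which include genes of basal and of differentiating cells, 5 were called higher with FA+TPA than with TPA, Krt10 by 1.89 ± 0.15 and Lor by 1.51 ± 0.15 (edgeR adjusted p = 7.31e-05 and 0.000233). Krt14 was at 8004.7 and 6948.5 CPM in TPA and 6247.7 and 5557.2 CPM in FA+TPA skin, and it was not called by edgeR (-0.34 ± 0.11, adjusted p = 0.0854), while DESeq2 and limma-voom each called 1 of the 6 lower. The part of these markers in the Fmo2 level was not tested.

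**Figure D5:**
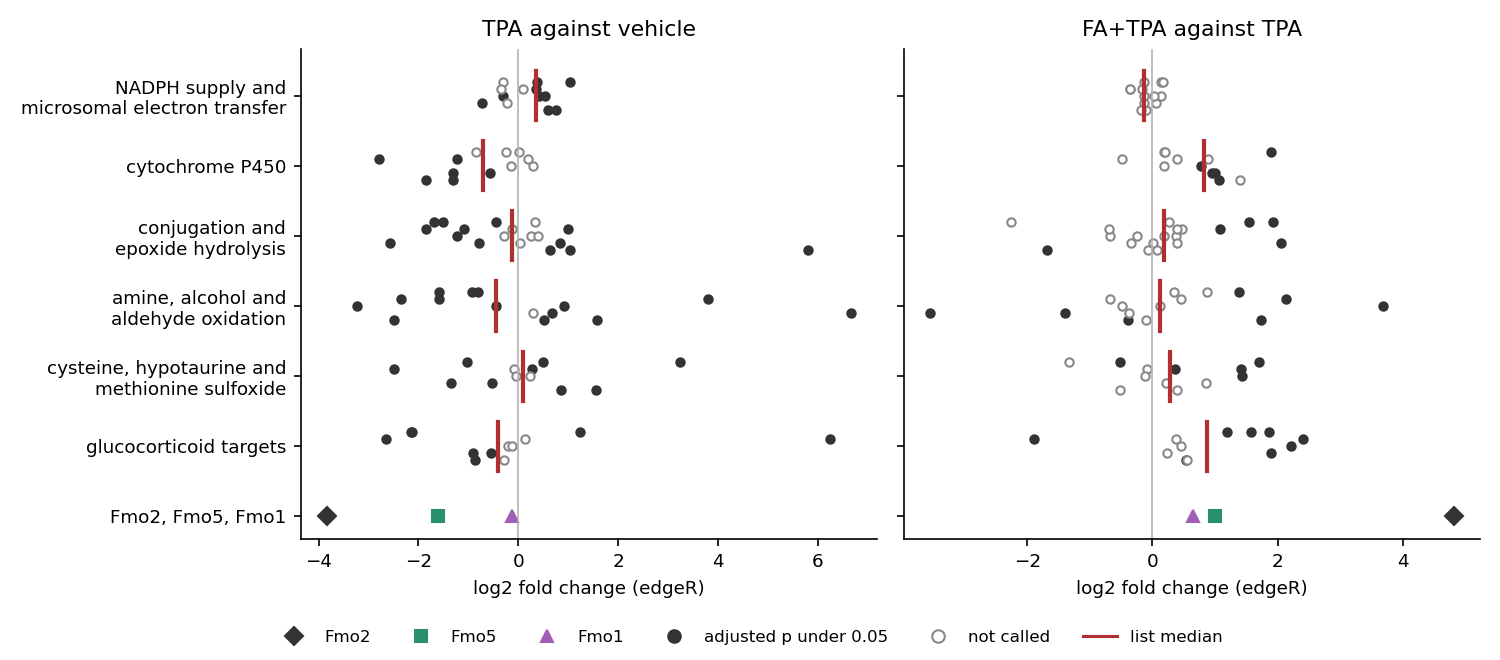
Log2 fold change of each tested gene in 6 lists, with the members Fmo2, Fmo5 and Fmo1 in the bottom row. Filled circles passed the threshold, open circles did not, and red bars are list medians. The list medians lie between -0.71 and 0.35 in the TPA panel and between -0.13 and 0.88 in the FA+TPA panel, and Fmo2 is drawn at -3.83 and 4.82 as a description, since the second contrast chose it.

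Among these lists the genes called between knockout and wild type over all treatments were higher in the knockout by edgeR on all 8 libraries, unlike Fmo2. They were 2 of 13 in NADPH supply and electron transfer, 2 of 12 cytochrome P450 genes, 1 of 19 in conjugation, 3 of 15 in amine, alcohol and aldehyde oxidation and 1 of 12 in cysteine and hypotaurine metabolism. Background calls higher in the knockout were 1.98% of all genes. These few calls varied with the library left out, from 1 to 4 in amine, alcohol and aldehyde oxidation and from 0 to 2 in NADPH supply. In cysteine and hypotaurine metabolism 1 gene was called lower by DESeq2, and 2 were called lower by edgeR without the wild-type or the knockout TPA library. Adh1, an alcohol dehydrogenase gene, was at 26.8 and 33.7 CPM in wild-type and 50.5 and 53.2 CPM in knockout vehicle skin. It rose by 0.67 ± 0.09 in the knockout (edgeR adjusted p = 0.00425). Mgst1, a microsomal glutathione transferase gene, rose by 1.35 ± 0.23 and Cyp1a1 by 1.07 ± 0.19 (edgeR adjusted p = 0.0111 and 0.0123), in the libraries that also had the higher sebaceous marker sums given above.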

How the data were processed

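RNA of scraped epidermis was sequenced as 8 libraries. Per the submitters' processing notes the tools were Trim Galore, STAR and HTSeq with build mm10, with no version, annotation release or strand setting stated. The authors deposited raw counts per Ensembl gene, 1 file a library. Without a known strand, reads of overlapping antisense genes cannot be told apart.

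Symbols and coordinates came from GENCODE M21, which matched 54165 identifiers and not 67. The members and all gene lists were chosen with earlier results of these data known. Groups came from the labels. Another gene of the family is not reported here.

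The test was edgeR 4.0.16 under R 4.3.3 (quasi-likelihood, TMM factors 0.859 to 1.102, filterByExpr by treatment with minimum count 10, Benjamini-Hochberg threshold 0.05). Treatment and overall genotype comparisons were fitted additively on 8 libraries with 4 residual degrees of freedom; the vehicle-only and interaction comparisons used 1 mean per group with 2. The SE is the absolute log2 fold change over the square root of F. The fit was tested on simulated counts. Vehicle pairs differed beyond sampling noise (chi-square per degree of freedom 27.57 and 12.37), so neither was counted as 1 library. Named genes were the members, Ddit4, other Fmo genes, per list the 3 called genes of smallest p in TPA against vehicle and in FA+TPA against TPA, protein-coding genes within 250 kb of a member, and the 5 genes most correlated with Fmo2 and 3 with each other member, at a mean log2 CPM of at least 2 and a prior count of 2. Genes with names that start with Gm and digits or end in Rik were left out of the correlation ranking. Mgst1, Cyp1a1, Lor, Krt10, Krt14 and Krt15 were named after their values were seen. Alternatives were RLE scaling, library size only, no filter, minimum count 50, DESeq2 1.42.0, limma-voom 3.58.1, 1 mean per group, each library left out, and a replicate block.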

Additional observations from a re-analysis of the deposited data

How the results depend on the processing

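No member fold change reversed sign past a threshold in any alternative run. For Fmo2 in the knockout over all treatments, fits without a library gave log2 fold changes of -1.04 to -0.69, and the call was lost at -0.82, -0.84 and -0.85 (edgeR adjusted p = 0.0717, 0.114 and 0.116). In vehicle skin the range was -0.83 to -0.39. Fits without a vehicle library drew their spread from 1 vehicle pair there, so no call is read from them. The Fmo2 interaction with FA ranged from 1.16 to 1.18, in fits without a vehicle library only. That contrast holds no vehicle library and could not be fitted if any of its treated libraries was left out. Its narrow range was thus fixed by the design and does not show a stable estimate. The Fmo2 interaction with TPA ranged from -1.68 to -1.24 and was not fitted when either TPA library was left out. Library size alone in place of TMM gave Fmo2 -4.09 and Fmo5 -1.83 with TPA, and Fmo5 -0.82 for FA+TPA against vehicle. At a minimum count of 50, Fmo1 was not tested.

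The numbers of genes called moved as follows. Without 1 library they were 6049 to 8810 for TPA against vehicle, 571 to 2367 for FA+TPA against TPA, 2652 to 6051 for FA+TPA against vehicle, 288 to 630 for knockout over all treatments, 440 to 1465 for knockout in vehicle skin, 51 to 183 for the interaction with FA and 6 to 365 for that with TPA. For knockout in vehicle skin and the interactions, fits without a vehicle library drew their spread from 1 vehicle pair. Knockout over all treatments gave 1552 with no filter and 450 with 1 mean per group, against 690. Knockout in vehicle skin gave 219 at a minimum count of 50 and 272 by DESeq2, against 418. The interaction with FA gave 7 by DESeq2. The interaction with TPA gave 3 by library size only, 21 with no filter, 0 at a minimum count of 50, 11 by DESeq2 and 0 by limma-voom. Scaling by library size split the calls of FA+TPA against vehicle into 1953 higher and 4982 lower, against 3347 and 2729, and those of knockout over all treatments into 640 and 233, against 382 and 308. The cause was not tested.

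The vehicle libraries carry numbers 1 and 2 in both genotypes. Deviations of same-numbered libraries correlated at -0.0588 across genes, so no shift common to most genes was seen. With 1 difference per genotype, this cannot settle whether same-numbered libraries share a batch. With a replicate block on the vehicle libraries alone, 832 genes were called between genotypes and Fmo2 was at -0.59 (edgeR adjusted p = 0.0172). The main fit gave 418 genes and an edgeR adjusted p of 0.0926 for Fmo2. The block fit had only 1 residual degree of freedom, and the labels do not say that the numbers mark a batch. No call is therefore read from it. Single treated libraries, and counts of 8 to 19 for Fmo1, limit the precision.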
